A study of Sus scrofa with 70 samples.

Results

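The isoforms described here were assembled from long reads of pig reproductive glands, were classed as absent from the reference annotation, and carried a prediction of nonsense-mediated mRNA decay (NMD). They were taken from the deposited isoform table by 2 columns, namely a structural category of NIC (new combinations of known splice junctions or sites) or NNC (at least one new donor or acceptor), and an NMD prediction of true. This rule gave 19731 isoforms out of 110996, of which 5586 were NIC and 14145 were NNC. The 55185 isoforms of the same categories with an NMD prediction of false served as the comparison and are called the other NIC/NNC isoforms, and 3623 isoforms of these categories had no predicted coding sequence and entered neither set. The NMD-predicted isoforms came from 6348 genes, of which 5413 also had another NIC/NNC isoform, 2617 had a single NMD-predicted isoform and 311 had 10 or more.

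All samples came from boars aged 12 months of 2 breeds, the Banna mini-pig inbred line (BMI) and the Diannan small-ear pig (DSE), from which BMI was derived by mating of close relatives. From each breed, testis (Tes), the bulbourethral gland (BG), prostate (PG), epididymis (Epi) and the vesicular gland (VG) were sampled, with 1 long-read (Iso-seq) library and 3 short-read (RNA-seq) libraries per breed and gland, making 10 and 30 libraries. None of the groups was treated, and BMI is 1 inbred line, so a difference between BMI and DSE is one between these 2 lines. The labels did not state which libraries came from separate animals, so that the p-values below measure the spread between libraries.

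Nonsense-mediated decay is a surveillance pathway that degrades mRNAs on which translation ends too early. In mammals an exon junction complex is left upstream of each splice junction, the first ribosome removes those it passes, and a complex that remains downstream of the ribosome when it stops lets the UPF and SMG proteins mark the mRNA for decay. Cells also use the pathway to set the level of normal genes, since splicing factors of the SR family switch their own transcripts to a form with an early stop. The prediction in the isoform table rests on the position of the stop codon alone and is not a measurement of decay.

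The stops of the NMD-predicted isoforms with most long reads, and of those with the largest testis values below, are printed first because the prediction turns on them. Each sequence was read from the Sscrofa11.1 genome along the spliced isoform, 5′ to 3′, with the predicted stop codon in capitals and 12 bases of mRNA on either side.
FN1 PB.7849.3: ccactagcctgtTGAtcagctgggatg
SAT1 PB.21107.9: tgttcaaactacTGAggaaaaaaaata
COL1A1 PB.3638.3: ccctcaagagccTGAgccagcagatcg
COL1A2 PB.20009.4: gtcttcctggctTGAagggacacaacg
SSR1 PB.17195.3: cggcgcttccccTGAacactgtcgtgc
CYB5R3 PB.14126.5: agctggaggaacTGAggaacgaacatt
HSP90B1 PB.14953.1: aaactctggacaTGAtcaagaagattg
CBLC PB.15765.3 and PB.15765.1: agagagaattccTAAagggaaagcgcc
SLC41A2 PB.14939.22: gggagcctgtcaTAAcagcaatggtta
CDK14 PB.19959.6: gtgtataatgaaTAGataactggaaag
The 5 most-read isoforms, listed first, all stopped at TGA. The coding sequence could be read from the genome for 19439 NMD-predicted isoforms, the rest lying on unplaced scaffolds, and all of these ended in a stop codon. TGA made up 54.4%, TAA 25.8% and TAG 19.8% of these stops, against 49.7%, 28.3% and 22.01% in the other NIC/NNC isoforms.

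The gland labels were checked against marker genes before use. The protamine PRM1 had a median of 54343 TPM in testis, a transcript abundance scaled for length and library size, the epididymal gene CRISP1 one of 1516 in the epididymis, and the prostate secretory gene MSMB one of 128338 in prostate. BMI prostate replicate 2 stood apart, however, because the gene of the vesicular gland spermadhesin PSP-I reached 169569 TPM there against 1.04 to 9.20 in the other prostate libraries and 216153 to 261758 in vesicular gland. The BMI prostate Iso-seq library held 4029 reads of PSP-I and 11 of MSMB, whereas the DSE prostate library held 0 and 123. The main prostate tests are therefore also given without RNA-seq replicate 2 and the long-read shares without FN1, while the other prostate values include both libraries.

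The distance rule behind the prediction separated the sets almost completely. The stop lay a median of 706 nt upstream of the last splice junction in the NMD-predicted isoforms, with an interquartile range of 312 to 1352 nt, while in the other NIC/NNC isoforms it lay at most 50 nt upstream. At the border, 26 NMD-predicted isoforms lay under 50 nt and 128 at 50 to 54 nt, against 6 other NIC/NNC isoforms at 50 to 54 nt. A single junction followed the stop in 6566 isoforms (33.3%) and the median was 2 junctions.

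Beyond the distance that the rule used, the NMD-predicted isoforms most often retained an intron. Intron retention was given as the kind of difference in 11910 of them (60.4%) against 40.7% of the other NIC/NNC isoforms, while a new splice site was given in 36.5% against 46.8%. Most began at a known start and ended at a new stop: the start codon matched an annotated one in 66.3% against 46.9%, but the stop matched an annotated one in 15.4% against 72.2%. The new stop lay inside an annotated exon in 36.1% of the NMD-predicted isoforms and outside annotated exons, in intronic or otherwise unannotated sequence, in 47.3%, against 11.099% and 16.1%. The predicted coding sequence had a median of 1065 nt against 1371 nt, although the isoforms themselves were of like length, with medians of 3591 and 3500 nt. Isoforms of 1 gene overlap and are not independent, so these shares are descriptions and were not tested.

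Several measures of how an isoform was assembled also differed between the sets. All junctions were canonical in 76.3% of the NMD-predicted and 89.7% of the other NIC/NNC isoforms, and a mark for possible template switching of the reverse transcriptase was set in 7.25% against 4.60%. Only 2 full-length reads supported 47.2% of the NMD-predicted isoforms against 37.3%, and 8.10% against 13.7% were read in all 5 glands. A genomic stretch of at least 60% A followed the 3′ end in 25.6% against 22.8%. Of the 19439 isoforms read from the genome, 2616 (13.5%) did not meet the distance rule on canonical junctions alone, and 99.3% of these had a non-canonical junction. The share that did not meet it was 43.3% (1303 of 3006) where the stop was the annotated one, 2.47% where it was new but inside an annotated exon, and 11.9% where it lay outside annotated exons.

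Within genes, NMD-predicted isoforms were less abundant than other NIC/NNC isoforms of the same gene in every library. For each of 4095 genes with both kinds and a gene level of at least 1 TPM in all 30 libraries, the mean TPM of its NMD-predicted isoforms was divided by that of its other NIC/NNC isoforms, with 0.1 TPM added to both. The median log2 ratio over genes was -1.94 ± 0.06 in testis (SD, n = 6), -1.68 ± 0.16 in the epididymis, -1.24 ± 0.10 in vesicular gland, -1.42 ± 0.07 in prostate and -1.56 ± 0.12 in bulbourethral gland. These correspond to levels of 0.260, 0.312, 0.422, 0.373 and 0.340 relative to the other NIC/NNC isoforms. Their size depended on the value added to TPM, since the log2 ratios were -0.75, -0.69, -0.39, -0.51 and -0.61 with 1 TPM and -2.54, -2.09, -1.77, -1.84 and -1.97 with 0.01 TPM, in the same order of glands. Isoforms with a long read in each gland gave ratios from -3.01 in testis to -2.14 in vesicular gland. All 30 libraries lay below 0, from -2.02 to -1.12, and in each gland a two-sided exact sign-flip permutation test over the 6 libraries gave p = 0.03125, the smallest it can give (the same after Benjamini-Hochberg adjustment over the 5 glands). Averaged over libraries, the ratio was below 0 in 3062 genes (74.8%), while 261 genes lay above 0 in every library. Leaving out BMI prostate replicate 2 kept the prostate value at -1.42 ± 0.07 with n = 5, where the smallest possible exact p is 0.0625.

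**Figure D1:**
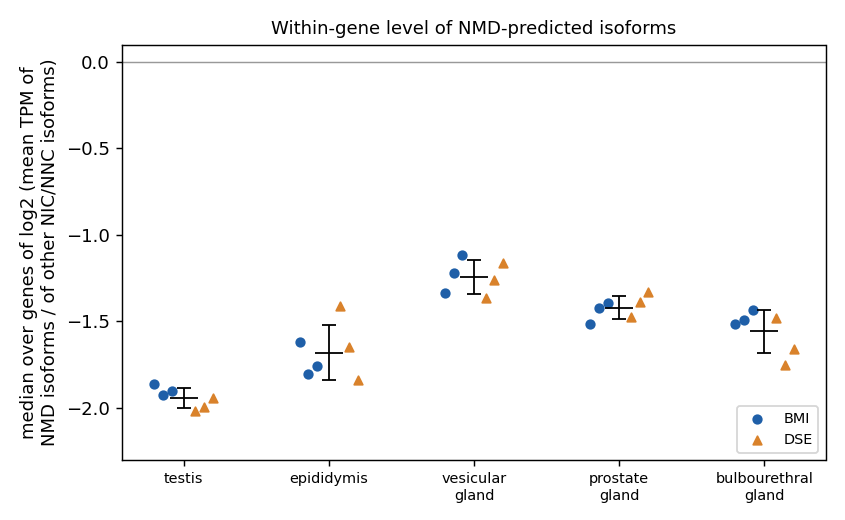
Median over 4095 genes of the log2 ratio of mean TPM of NMD-predicted to other NIC/NNC isoforms (y axis) by gland (x axis), with 1 point per RNA-seq library and bars for mean and SD over 6 libraries. All points lie below 0, testis lowest at -1.94 and vesicular gland highest at -1.24.

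The ratio differed between glands, with testis lowest and vesicular gland highest. Testis and vesicular gland differed by -0.70 on the log2 scale, and their libraries did not overlap. Testis also lay below epididymis (-0.26), prostate (-0.52) and bulbourethral gland (-0.39), each at exact permutation p = 0.00216, the smallest that 6 against 6 libraries allow (adjusted p = 0.00361 over 10 pairs of glands). Of the neighbours in the order, epididymis and bulbourethral gland did not differ beyond their spread (-0.12, exact permutation p = 0.160). The difference of 0.14 between prostate and bulbourethral gland passed with all libraries (adjusted exact permutation p = 0.0313) but not without BMI prostate replicate 2 (0.0601), where it was again 0.14. Without that library epididymis minus prostate was -0.26 (adjusted exact permutation p = 0.0189) and vesicular gland minus prostate was 0.18 (0.0186). The samples are bulk tissue, so fewer cells of a type and less RNA per cell cannot be told apart.

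The low level in testis held for new stops and not for annotated ones. Where the stop lay outside annotated exons (2842 genes), the mean log2 ratio was -2.45 in testis and -1.45 in vesicular gland. A new stop inside an annotated exon (1947 genes) gave a similar order, with -2.12 in testis and -1.45 in vesicular gland. Isoforms with the annotated stop (980 genes) stood highest in testis instead, at -0.79, and lowest in the epididymis, at -1.41. As given above, 43.3% of the isoforms of this last class did not meet the distance rule on canonical junctions alone, and the part of that in its ratio was not tested. With the set restricted to isoforms that met the rule on canonical junctions alone (3642 genes), the 5 ratios were -1.99, -1.69, -1.25, -1.41 and -1.56 in the order of glands above.

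**Figure D2:**
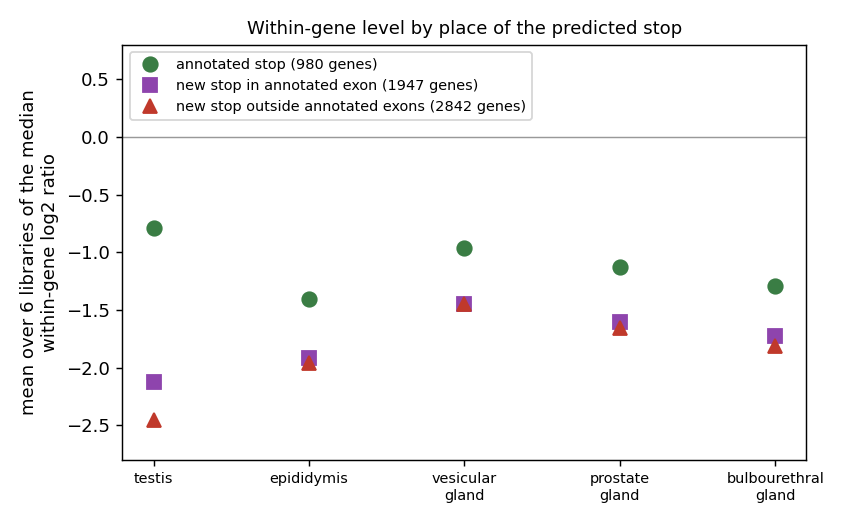
Mean over 6 libraries of the median within-gene log2 ratio (y axis) in 5 glands (x axis), with the NMD-predicted isoforms split by where the predicted stop lies. In testis the annotated-stop class lies at -0.79 and the class outside annotated exons at -2.45, whereas in the epididymis they lie at -1.41 and -1.96.

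The ratio was also split by the kind of splicing event. Averaged over glands, it was -1.60 for isoforms with a retained intron (2883 genes), -1.90 for those with a new splice site (2151 genes) and -1.58 for new combinations of known sites (354 genes). Isoforms with a new splice site were lowest in the epididymis (-2.14) and not in testis (-2.02), whereas those with a retained intron were lowest in testis (-2.19). One junction after the stop gave -1.91 (2365 genes), and 2 or more gave -1.64 (3024 genes). NIC and NNC isoforms gave -1.46 and -1.77 against all other NIC/NNC isoforms of the gene. Against other isoforms of their own category NIC isoforms were the lower in each gland, with NIC at -1.80 and NNC at -1.36 in testis, and NIC at -1.04 and NNC at -0.70 in vesicular gland. These subsets hold different genes and were not tested against each other.

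By the mean over genes, NMD-predicted isoforms took about the same share of all TPM of their genes in each gland, but this depended on the summary used. Over 4569 genes the mean share was 16.04% ± 0.492 in testis (SD, n = 6), 16.2% ± 0.810 in the epididymis, 17.1% ± 1.08 in vesicular gland, 17.0% ± 0.418 in prostate and 16.4% ± 0.741 in bulbourethral gland. Of 10 pairs of glands only testis against prostate passed, at -0.942 percentage points (exact permutation p = 0.00433, adjusted p = 0.0433), and it was lost without BMI prostate replicate 2 (-1.0005 points, adjusted exact permutation p = 0.0649) and with a replicate block. It was reversed with NNC isoforms only (0.679), with genes chosen by library (0.642) and with pooled sums (0.125), and testis against each of the other 3 glands passed with NIC isoforms only and with the median over genes. The prostate mean without that library was 17.0% ± 0.440. The share was unevenly spread over genes, with a median of 5.64%, under 5% in 2156 genes and over 50% in 473. DSE minus BMI differences of the mean share were -0.603 points in testis, 0.357 in the epididymis, -1.02 in vesicular gland, 0.512 in prostate and -0.833 in bulbourethral gland. The two-sided exact permutation p was 0.3, 0.7, 0.3, 0.2 and 0.2, where the smallest that 3 against 3 libraries allow is 0.1, and without BMI prostate replicate 2 the prostate difference was 0.494.

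The part of all TPM that the set took was highest on average in testis, where its range overlapped that of the epididymis. NMD-predicted isoforms held 4.85% ± 0.478 of all TPM in testis (SD, n = 6), 3.61% ± 0.880 in the epididymis, 3.10% ± 0.470 in bulbourethral gland, 2.70% ± 0.457 in prostate and 2.16% ± 0.600 in vesicular gland. The 10 most abundant transcripts took a mean of 59.2% of TPM in vesicular gland and 15.6% in testis, and their part in these values was not tested. On average 4061 of them (20.6%) reached 1 TPM in a testis library against 31.3% of the other NIC/NNC isoforms, and 2850 (14.4%) against 18.3% in vesicular gland. Of the 19731, 18207 had a row in the TPM table and 8758 (44.4%) reached 1 TPM in 3 or more libraries, against 53.9% of the other NIC/NNC isoforms.

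In the long reads, NMD-predicted isoforms took 13.03% of the full-length reads of NIC/NNC isoforms in BMI testis (95% Wilson interval 12.9 to 13.2) and 13.1% in DSE testis, the lowest values of the 10 libraries. The shares were 15.9% and 18.7% in BMI and DSE epididymis, 17.7% and 16.2% in vesicular gland, 20.5% and 13.6% in prostate, and 15.0% and 16.9% in bulbourethral gland. The high BMI prostate value came with 10009 reads of NMD-predicted isoforms of FN1, against 7 in DSE prostate, and without FN1 it was 14.9%. Vesicular gland had 14.7% and 12.2% without FN1, below the testis value in DSE. In all 10 libraries an NMD-predicted isoform had fewer reads on average than another NIC/NNC isoform, for example 6.05 against 9.96 in BMI testis. The libraries held 127839 to 278819 reads of NIC/NNC isoforms, and the intervals cover counting error only.

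The 5 most-read NMD-predicted isoforms, taken 1 per gene, came from FN1, SAT1, COL1A1, COL1A2 and SSR1. FN1, the gene of fibronectin, had 105 NMD-predicted isoforms, more than any other gene. Its isoform PB.7849.3 (chr15:117658099-117731104, Sscrofa11.1) held 14108 of the 25294 full-length reads assigned to the gene, counted here and below over all isoform categories. Its stop lay in exon 28 of 44, leaving a predicted protein of 1347 residues and 16 junctions downstream. Vesicular gland libraries gave 3450 reads in BMI and 4711 in DSE, and the BMI prostate library gave 5880 against 4 in DSE. In the RNA-seq libraries of vesicular gland it took 14.7%, 38.8% and 28.6% of FN1 TPM in BMI, and 0%, 37.3% and 37.4% in DSE. One of the 6 vesicular gland libraries, DSE replicate 1, thus assigned it nothing. FN1 itself had 1677 to 2562 TPM in vesicular gland, 1124 in BMI prostate replicate 2 and 5.59 to 19.8 in the other prostate libraries.

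SAT1 encodes the spermidine and spermine acetyltransferase, whose own transcripts are a textbook case of control through an exon with an early stop. The isoform PB.21107.9 (chrX:19907898-19910993) held 12273 of the 14910 reads of the gene. Of the 12273, 5501 came from epididymis, 2805 from prostate, 2512 from bulbourethral gland, 1118 from vesicular gland and 337 from testis. Its stop in exon 3 of 5 left a predicted product of 116 residues. Of SAT1 TPM it took a median of 3.71% in testis (1.23 to 4.48), 8.22% in the epididymis (4.08 to 12.2), 7.97% in vesicular gland (7.40 to 12.6), 21.4% in prostate (6.13 to 27.5) and 15.6% in bulbourethral gland (12.3 to 18.98). The testis range overlapped that of epididymis and lay below those of the other 3 glands.

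COL1A1 PB.3638.3 (chr12:26379079-26397004) held 7362 of 7466 reads of its gene and stopped in exon 48 of 51. Its share of COL1A1 TPM was a median of 36.9% in testis (29.3 to 44.9) and 24.1% in prostate (21.5 to 28.3), ranges that did not overlap. COL1A2 PB.20009.4 (chr9:74174223-74210398) held 5299 of 5728 reads of its gene and stopped in exon 46 of 52, but its mean share of gene TPM was 5.28%. Both genes encode chains of the collagen of connective tissue, and a large share of the long reads went with a far smaller share of TPM in COL1A2. SSR1 encodes a subunit of the translocon-associated complex of the endoplasmic reticulum. Its isoform PB.17195.3 (chr7:4658669-4685964) held 2435 of the 2503 reads of the gene, and 273 of the 2435 came from testis. This isoform took a median of 1.12% of SSR1 TPM in testis (0 to 28.4) against 66.7% in the epididymis (24.9 to 75.4).

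Several of the 8 isoforms with the highest mean TPM rested on few long reads. ACTB PB.11544.6 (chr3:4086969-4090342), of cytoplasmic beta-actin, averaged 382 TPM and 40.2% of gene TPM (24.7 to 66.1) with 2 of the 895 reads of the gene. It kept the annotated stop, carried a non-canonical gap of 161 nt and was marked for template switching. ATP1B1 PB.13390.5, of a sodium pump subunit, averaged 320 TPM on 2 of 119 reads with a gap of 552 nt. SERF2 PB.943.10 averaged 217 TPM on 4 of 486 reads with a gap of 202 nt. RPL4 PB.1275.7, of a large-subunit ribosomal protein, averaged 302 TPM on 2 of 340 reads, but with canonical junctions and a stop outside annotated exons.

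Other abundant isoforms held most of the long reads of their genes. CYB5R3 PB.14126.5 (chr5:6146276-6170207), of a cytochrome b5 reductase, averaged 321 TPM and held 1245 of 1269 reads and 95.7% of gene TPM (67.0 to 100). Its stop lay 57 nt before the last junction, close to the threshold. HSP90B1 PB.14953.1 (chr5:80511518-80530992), of the endoplasmic reticulum chaperone GRP94, averaged 179 TPM, with 1417 of 2101 reads and 60.6% of gene TPM. Its stop lay in exon 12 of 18, 971 nt upstream of the last junction. EPHX1 PB.2303.13, of a microsomal epoxide hydrolase, averaged 247 TPM with 590 of 897 reads. It took a median of 46.8% of gene TPM in testis (40.6 to 49.7), 41.5% in prostate (5.82 to 71.0), 67.7% in vesicular gland (62.0 to 74.2), 82.3% in the epididymis (81.1 to 88.7) and 84.0% in bulbourethral gland (81.6 to 88.6). RPL32 PB.4692.1 held 98.8% of gene TPM and 27 of 29 reads, with a non-canonical gap of 132 nt whose ends share 41 bases. Of the 100 NMD-predicted isoforms highest in TPM, 27 rested on 2 reads, 36 had a non-canonical junction and 42 kept the annotated stop, against 47.2%, 23.7% and 15.4% of the whole set.

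Differences of each gland from the mean of the other 4 were fitted with limma over all 64661 transcripts that reached 1 TPM in 3 libraries, and called at a Benjamini-Hochberg adjusted p below 0.05 with at least a log2 change of 1. In testis 2043 of 8758 NMD-predicted isoforms (23.3%) were higher and 746 (8.52%) lower, against a background over all transcripts of 28.4% and 9.53%. Epididymis gave 570 higher and 291 lower (background 9.63% and 4.4%), vesicular gland 225 and 698 (2.49% and 13.4%), prostate 215 and 326 (2.6% and 6.56%), and bulbourethral gland 441 and 371 (6.37% and 6.46%). Without BMI prostate replicate 2 the prostate counts were 287 and 373. Scaling by size factors gave 498 higher and 398 lower in vesicular gland, 308 and 414 in the epididymis, and 276 and 441 in bulbourethral gland, so that the balance of direction in these 3 glands depended on the scaling. The backgrounds above belong to the main fit. None was computed without BMI prostate replicate 2 or with size factors. Over all transcripts the median log2 difference was 0.06 in testis, 0.08 in the epididymis, -0.40 in vesicular gland, -0.21 in prostate and -0.08 in bulbourethral gland, and with size factors it was 0.10, -0.15, -0.20, -0.19 and -0.19. As a share of those tested, the NMD-predicted isoforms lay below the background in each gland and direction except for those higher in vesicular gland (2.57%). The share was 6.51% higher and 3.32% lower in the epididymis, 7.97% lower in vesicular gland, 2.45% higher and 3.72% lower in prostate, and 5.04% higher and 4.24% lower in bulbourethral gland. Adding 0.1 in place of 1 TPM raised the count lower in testis to 2203, for which no background was computed either. The 5 contrasts use the same libraries and are not independent of each other.

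To separate isoform choice from gene level, the same contrasts were fitted on each transcript's share of its gene's TPM (39513 transcripts, 6025 of them NMD-predicted), with a call needing a difference of at least 10 percentage points. In testis 510 (8.46%) took a higher and 362 (6.01%) a lower share, against 10.9% and 8.35% of all transcripts. The counts were 52 and 83 in the epididymis (background 1.78% and 1.87%), 93 and 70 in vesicular gland (2.17% and 1.93%), 65 and 59 in prostate (1.43% and 1.3%), and 66 and 75 in bulbourethral gland (1.8% and 1.63%). Every one of these shares lay below its background, in prostate by little (1.08% against 1.43% higher and 0.979% against 1.3% lower). A call needs 10 points, while NMD-predicted isoforms together took a median of 5.64% over genes. The part of that in these counts was not tested. Without BMI prostate replicate 2 the prostate counts by share were 71 and 58. With 1 replicate number left out of all groups they fell as low as 13 and 22 in prostate and 32 and 25 in vesicular gland, both without replicate 3, and as low as 16 and 32 in the epididymis. No background over all transcripts was computed for these smaller fits. In testis 192 of those higher and 63 of those lower had no overlap between the 6 testis and the 24 other libraries, which is 3.19% and 1.05% of those tested against a background of 3.8% and 1.6%. Corresponding counts were 1 and 2 in the epididymis (background 0.0607% and 0.0253%), 3 and 1 in vesicular gland (0.0304% in both directions), 0 and 0 in prostate (background 0.0%), and 0 and 0 in bulbourethral gland (0.0481% and 0.0127%).

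The isoforms with a higher share in testis differed in structure from those with a lower share. Of the 510, 48.4% retained an intron, 47.8% had a new splice site and 39.8% kept the annotated stop, whereas of the 362 lower ones 67.1%, 27.9% and 20.2% did. All 6025 tested had 63.7%, 32.5% and 20.1%. A stop outside annotated exons was carried by 20.6% of the higher ones and 42.1% of all tested. Testis gave 38.0% of the long reads of the 510, against 18.6% of those of all tested. For the 362 it gave 17.7%, near the value of all tested. No testis read was held by 114 of the 510, against 169 of the 362 and 3227 of all 6025 tested. A non-canonical junction was carried by 20.4% of the 510, against 17.0% of all tested.

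CBLC, an E3 ubiquitin ligase of the CBL family, changed from one NMD-predicted isoform to another in testis. PB.15765.3 (chr6:51287818-51292549) took 98.9% to 100% of CBLC TPM in testis, median 99.3%, and at most 9.83% in any other library, a difference of 98.9 ± 0.931 percentage points (SE, limma, adjusted p = 1.97e-26). PB.15765.1 (chr6:51276499-51292549) took 0 to 0.482% in testis and 90.2% to 100% elsewhere (-96.3 ± 1.32 points, limma adjusted p = 1.7e-23). They share the stop printed above, 56 nt before the last junction and so just past the threshold, and differ in where the transcript begins. Long reads followed the same split at low number, since all 3 reads of PB.15765.3 and none of the 7 of PB.15765.1 came from testis.

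SLC41A2, a magnesium transporter gene, had a testis isoform with deeper long-read support. PB.14939.22 (chr5:79599762-79721471) had 265 reads, all from testis, and took 68.5% to 94.4% of gene TPM there (median 88.7%) against at most 5.41% elsewhere (84.8 ± 1.69 points, limma adjusted p = 1.52e-20). CDK14, of a cyclin-dependent kinase, had PB.19959.6 (chr9:70545380-70593719), whose 6 reads all came from testis, with the stop 53 nt before the last junction. It took 49.3% to 91.5% in testis (median 82.4%) and at most 4.84% elsewhere (76.6 ± 2.41 points, limma adjusted p = 6.01e-17). DAAM2, of a formin-family protein of Wnt signalling, went the other way, with PB.17518.4 at 0 to 48.2% in testis (median 0%) and 63.0% to 100% elsewhere (-76.1 ± 5.93 points, limma adjusted p = 5.76e-10). These 5 isoforms kept their calls in all alternatives run.

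**Figure D3:**
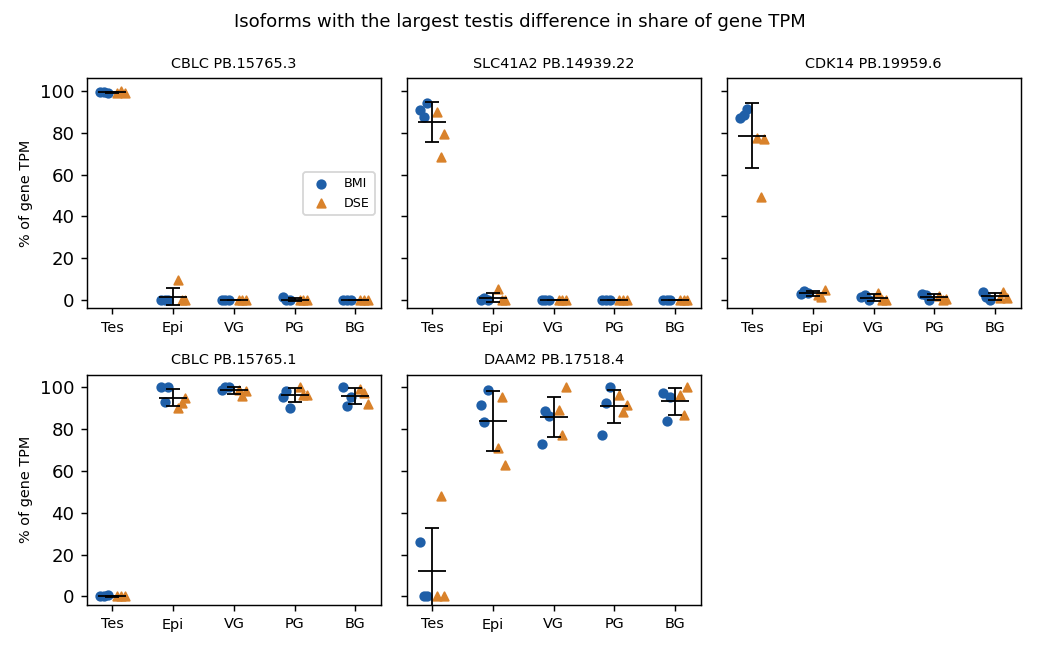
Share of gene TPM in percent (y axis) of the 5 named testis isoforms in 5 glands (x axis), with 1 point per RNA-seq library and bars for mean and SD over 6 libraries. The first 3 are near 0 outside testis, CBLC PB.15765.1 is near 0 in testis, and DAAM2 PB.17518.4 reaches 48.2% in 1 testis library.

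Few isoforms separated the other glands. In epididymis STRN4 PB.15826.4, of a striatin of the STRIPAK phosphatase complex, took 2.16% to 59.6% (median 12.8%) against at most 0.796% elsewhere (23.9 ± 5.39 points, limma adjusted p = 0.00734), a call lost when replicate 2 (adjusted p = 0.0606) or replicate 3 (0.187) was left out. MYL12B PB.16603.19, of a myosin regulatory light chain, was lower there at 50.03% to 68.2% (-24.3 ± 1.97 points, limma adjusted p = 4.45e-08). FADD PB.9890.131, of the adaptor of death receptors, was lower by a smaller amount (-12.7 ± 1.83 points, limma adjusted p = 9.25e-05). The STRN4, MYL12B and FADD isoforms rested on 2 long reads each, and neither read of MYL12B came from the epididymis. MYL12B carried non-canonical gaps of 23258 and 8071 nt, and FADD one of 241 nt. Both kept the annotated stop and did not meet the distance rule on canonical junctions alone.

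In vesicular gland HSPB6, of a small heat shock protein of muscle, had the largest of the 3 rises without overlap, with PB.15581.4 at 27.4% to 39.1% (28.6 ± 3.14 points, limma adjusted p = 3.35e-06). Of its 5 long reads 4 came from testis, where its median share of TPM was 0. This isoform kept the annotated stop, carried a non-canonical gap of 311 nt and did not meet the distance rule on canonical junctions alone. PI4KA PB.6157.58, of a phosphatidylinositol kinase, took 5.05% to 32.6% (18.0 ± 2.64 points, limma adjusted p = 0.000119). PAQR3 PB.19325.14 took 26.4% to 40.0% (14.2 ± 2.17 points, limma adjusted p = 0.000184), and MBOAT7 PB.15951.4, of a lysophospholipid acyltransferase, was lower at 5.54% to 10.5% (-14.5 ± 1.69 points, limma adjusted p = 7.55e-06). The PI4KA and PAQR3 isoforms rested on 2 long reads each, none from vesicular gland, and that of PI4KA was marked for template switching. MBOAT7 PB.15951.4 had 54 reads. No called isoform of prostate or bulbourethral gland was free of overlap with the other glands.

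Most core NMD factor genes were higher in testis. Of 13 core NMD factor genes listed, 12 were found, and 8 were higher and 0 lower in testis by limma on gene TPM, against a background of 34.6% higher and 12.7% lower genes. Their median log2 difference was 1.496, against 0.31 over all genes. UPF3A, the paralog of the exon junction adaptor UPF3B, stood out with a median of 78.3 TPM in testis (24.2 to 83.0) against 3.70 in the epididymis, 0.652 in vesicular gland, 1.15 in prostate and 1.36 in bulbourethral gland (log2 difference 4.68 ± 0.17, SE, limma adjusted p = 2.7e-18). The kinase SMG1 differed by 2.03 ± 0.18, NBAS, a further NMD factor, by 2.02 ± 0.14 and the endonuclease SMG6 by 1.85 ± 0.18, while UPF2, UPF3B and the helicase UPF1 differed by 1.69, 1.30 and 1.14 on the same log2 scale. Under scaling by size factors UPF1 fell short of the fold needed (0.89), and PNRC2, a decapping adaptor, was then called lower (-1.16).

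**Figure D4:**
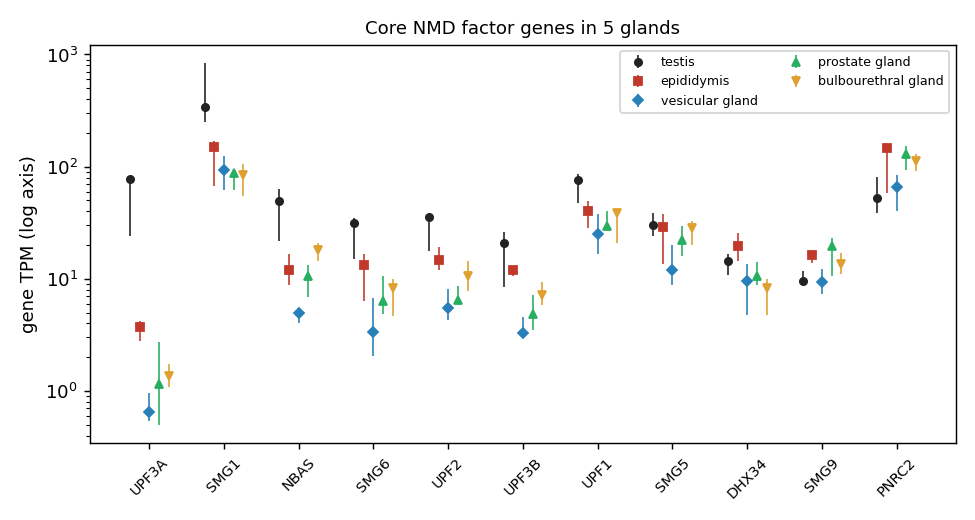
Gene TPM (y axis, log scale) of core NMD factor genes (x axis) by gland, with the median of 6 libraries as a point and the lowest and highest library as the bar. UPF3A has a median of 78.3 TPM in testis and at most 3.70 in another gland, while PNRC2 is not highest in testis.

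In the other glands the same list gave few calls apart from vesicular gland, where 6 of the 12 were lower and none higher against a background of 30.1% and 2.95%, a count that was 1 under size factors. One was lower in prostate and 1 in bulbourethral gland, against a background of 12.8% and 12.0%, with none higher against 3.69% and 8.45%, and none was called in the epididymis (background 15.1% higher and 6.56% lower). Among 13 termination and decay genes 9 were higher in testis (median 1.24), led by the decapping factor DCP1A (2.32) and the deadenylase scaffold CNOT1 (2.23). Of 8 exon junction complex genes, SAP18 (1.84) and PYM1 (1.72), which takes the complex off the mRNA, were higher in testis, a share below the background of 34.6%. Cytosolic ribosomal protein genes went the other way, with 22 of 65 lower in testis and 0 higher (median -0.76), against a background of 12.7% and 34.6%. Size-factor scaling left 7 of the 13 decay genes higher in testis and gave 33 ribosomal genes lower.

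Some of these factors were themselves sources of NMD-predicted isoforms. The 12 found core genes had 26 such isoforms in 8 genes, with 177 reads. In NBAS, 11 NMD-predicted isoforms took 99.6% to 100% of gene TPM by gland mean, and in the helicase gene DHX34, 4 isoforms took 72.8% to 83.0%. SMG6 had 3, which took a median of 44.8% of its TPM in testis (1.11 to 53.7) against means of 0.190 to 0.809% in the other glands. EDC4, of an mRNA decapping scaffold, had 14, which took a mean of 5.49% in testis against 25.3% to 32.4% elsewhere.

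SR protein genes, which regulate splicing and are known to control themselves through NMD, had 45 NMD-predicted isoforms in 9 genes with 866 reads, and made up 30.4% of the NIC/NNC isoforms of the listed genes, against 26.3% over all genes, 20.5% for the core NMD factors and 23.3% for the other splicing regulators. SRSF3 had 11, which took 13.3% of gene TPM in testis on average (library values 9.95 to 15.9, median 13.5) against 26.6% in the epididymis, 30.3% in vesicular gland, 23.8% in prostate and 21.9% in bulbourethral gland. SRSF7 had 15 with gland means of 23.1% to 31.2%, SRSF1 had 4 with 23.4% to 31.5%, and SRSF2 had 7 with 16.1% to 22.4%. SRSF9 PB.6001.5 averaged 93.0% of gene TPM (73.7 to 96.7) on 2 of 149 reads of its gene and was marked for template switching. At gene level, 1 of 13 SR genes was higher in testis, SRSF12 (3.52), against the background given above.

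The 36 other splicing regulators found had 155 NMD-predicted isoforms in 29 genes, with 1802 reads. PTBP2, the neuronal paralog of the polypyrimidine tract binding protein PTBP1, had PB.13923.12 with 45 reads, at a median of 20.6% in testis (6.02 to 36.3) and 53.6% in vesicular gland (23.5 to 63.3). SNRNP70, of the U1 small nuclear ribonucleoprotein, had PB.15891.13 with 162 of 272 reads of the gene. Its median share was 14.3% in testis (7.21 to 22.1), and it took 26.7% to 57.8% in the other glands, ranges that did not overlap. At gene level 6 of the 36 were higher and 2 lower in testis (3 and 2 under size factors), against a background of 34.6% and 12.7%, among them PTBP2 (1.79), SNRPA1 of the U2 ribonucleoprotein (1.60) and the kinase CLK1 (-1.48). Of 7 genes widely described as NMD targets, SAT1 had 10 and TBL2 had 8 NMD-predicted isoforms. TBL2 (3.01) and DDIT3 (1.27) were higher and ATF3 (-1.76) was lower in testis at gene level, shares near the background of 34.6% and 12.7%, and size factors gave 2 higher and 3 lower of the 7.

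Between the breeds, few NMD-predicted isoforms differed in share. In testis 16 were higher and 55 lower in DSE than in BMI (background 0.569% and 1.13% of all transcripts), and in the epididymis 3 and 8 (0.081% and 0.121%). Vesicular gland gave 8 and 15 (0.142% and 0.154%), prostate 6 and 9 (0.111% and 0.114%) and bulbourethral gland 3 and 6 (0.0658% and 0.0911%). On log2 TPM the counts were 65 and 325 in testis (background 1.09% and 3.87%), 32 and 25 in the epididymis (0.354% and 0.353%), 2 and 30 in vesicular gland (0.114% and 0.255%), 33 and 8 in prostate (0.333% and 0.122%), and 17 and 32 in bulbourethral gland (0.215% and 0.226%). In testis DSE replicate 2 stood apart, with 3.99% of all TPM in NMD-predicted isoforms against 4.64% to 5.25% in the other testis libraries. Without it the testis counts were 34 higher and 39 lower by share (background 0.704% and 0.8%) and 84 and 193 by TPM (1.27% and 2.2%), a nearly even split by share. Over the 55 isoforms lower in DSE testis by share, the Iso-seq libraries held 491 reads in BMI testis and 301 in DSE testis. Reads went the other way for those lower in DSE vesicular gland (70 in BMI and 77 in DSE), for those lower in DSE bulbourethral gland (33 and 45) and for those higher in DSE vesicular gland (7 and 4). Without BMI prostate replicate 2 the prostate count by share was 24 in all, against 15, with no background computed for that fit.

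In all 96 isoforms were called by share in at least 1 gland, 26 higher and 70 lower in DSE, and none in both directions. Of the 70, 55 were lower in testis, where the split was 34 higher and 39 lower without DSE testis replicate 2. Most of the 96 were called in 1 gland only (22 higher and 62 lower). A small number were called in 4 or 5 glands, namely SNX24, PRKDC, ZNF71, MIGA1, RINT1, SURF4, SFRP1 and a gene with only an identifier, ENSSSCG00000052432. Of these, MIGA1, SURF4 and the last were chosen after their values were seen. All except ZNF71 PB.16055.4 carried a non-canonical gap in the alignment, which was 7 nt in SURF4, 21 in SNX24, 28 in SFRP1, 124 in ENSSSCG00000052432, 126 in MIGA1, 296 in RINT1 and 2753 in PRKDC. Of all 96, 21 (21.9%) had a non-canonical junction, against 17.0% of all tested. The share of all transcripts called in any gland, or in several, was not computed, so these counts have no background. The labels do not tell whether glands came from the same boars, so calls of 1 isoform in several glands may not be separate evidence.

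The ends of 4 of these gaps are shown because 7 of the 8 isoforms called in 4 or 5 glands carried one, with the flanking exon bases in lower case and the first and the last 12 bases of the gap in capitals, along the transcript.
RINT1 chr9:105429142-105429437 start: cacgcttaaaaaCTAAGAATTTTT
RINT1 chr9:105429142-105429437 end: AACTCCGTAAAActaagaattttt
SFRP1 chr17:10436768-10436795 start: gacaccaagtgaGAGTAGCTCCAC
SFRP1 chr17:10436768-10436795 end: ACTCCGGAGCTGttttggactcag
SNX24 chr2:126507017-126507037 start: ggaggtggggggTTAGCTTCTAAC
SNX24 chr2:126507017-126507037 end: AACGTCAGCACAtaagataaaatg
MIGA1 chr6:135393624-135393749 start: tataccacttatTTAGAGTGGCTG
MIGA1 chr6:135393624-135393749 end: AATGCATTTTTAgattaaagtgcc
None of these gaps begins with GT and ends with AG, as introns do, and the RINT1 gap has 16 bases shared between its ends. The part of the gaps in the breed differences was not tested.

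SFRP1, a secreted inhibitor of Wnt signalling, had the widest breed difference. PB.8685.3 took 83.9%, 100% and 100% of SFRP1 TPM in the BMI testis libraries, and 0 in every DSE library of every gland (testis difference -94.6 ± 8.43 points, SE, limma adjusted p = 1.91e-07). Its 9 long reads were all from BMI. In prostate the BMI libraries held 85.6%, 83.4% and 34.1%, and the call (limma adjusted p = 0.000453) was lost without replicate 1 or without replicate 2 (highest adjusted p = 0.102). RINT1, which acts in transport between Golgi and endoplasmic reticulum, had PB.20191.9 with 72 reads in BMI and 0 in DSE. It took 84.8%, 73.3% and 81.4% in BMI prostate and 0 in DSE prostate (-79.9 ± 8.72 points, limma adjusted p = 9.49e-05).

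SNX24, a sorting nexin gene, had PB.11208.72 at 70.9%, 73.9% and 68.6% in BMI testis and 0 in DSE (-71.1 ± 12.2 points, limma adjusted p = 0.00117, up to 0.119 over the alternatives). MIGA1, of a mitochondrial fusion protein, had PB.16765.59 with 70 reads in BMI and 0 in DSE, at a median of 46.4% over BMI libraries (30.6 to 63.8) and 2.82% over DSE libraries (0 to 12.8). SURF4 PB.2185.12, of a cargo receptor of the endoplasmic reticulum, had a median of 62.5% in BMI (28.3 to 89.9) and 8.76% in DSE (0 to 20.8), although its 60 reads in BMI were fewer than its 180 in DSE. The BMI and DSE ranges of these 3 genes did not overlap except for SNX24, where 1 BMI library was at 0.

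PRKDC and ZNF71 were higher in DSE. PRKDC PB.13377.5, of the catalytic subunit of the DNA-dependent protein kinase, took 7.16%, 6.29% and 22.7% in BMI epididymis and 60.5%, 47.1% and 46.7% in DSE epididymis (39.4 ± 5.85 points, limma adjusted p = 0.0023, up to 0.186 over the alternatives). ZNF71 PB.16055.4, of a zinc finger protein, took 0 in the BMI bulbourethral gland libraries and 40.7%, 48.2% and 47.7% in DSE (45.5 ± 5.34 points, limma adjusted p = 8.17e-05, up to 0.0913). Both rest on 2 long reads, from DSE. BMI prostate replicate 3 departed from its group in several of these genes, with SNX24 at 0 against 81.2% and 83.5%, and ZNF71 at 27.9% against 0 and 0. Without it the prostate calls by share were 13 against 15, again with no background computed.

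Some breed differences were seen in 1 gland. LRR1 PB.1383.2, of a leucine-rich repeat protein of a ubiquitin ligase, took 0 in BMI bulbourethral gland and 41.6%, 63.6% and 54.1% in DSE (53.1 ± 4.46 points, limma adjusted p = 2.5e-06). PRSS22 PB.11944.234, of a serine protease, took 0 in BMI testis and 48.7%, 36.3% and 30.0% in DSE (38.3 ± 6.72 points, limma adjusted p = 0.00144, up to 0.105 without replicate 1). RNF135 PB.3717.3, of a ubiquitin ligase of antiviral signalling, was at 0, 39.0% and 0 in BMI testis and 87.0%, 36.2% and 87.6% in DSE (57.3 ± 14.4 points, limma adjusted p = 0.0321, up to 0.535). Its groups overlapped. ZNF250 PB.12783.8 in prostate (28.5 points, limma adjusted p = 0.016) was lost without BMI prostate replicate 2 (adjusted p = 0.0509) or replicate 3 (0.0944), and without replicate 3 of all groups (0.241). LRR1 rested on 3 long reads, RNF135 on 2 and PRSS22 on 2, both from bulbourethral gland. The LRR1, RNF135 and ZNF250 isoforms carried non-canonical gaps of 1031, 1366 and 7170 nt and did not meet the distance rule on canonical junctions alone.

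**Figure D5:**
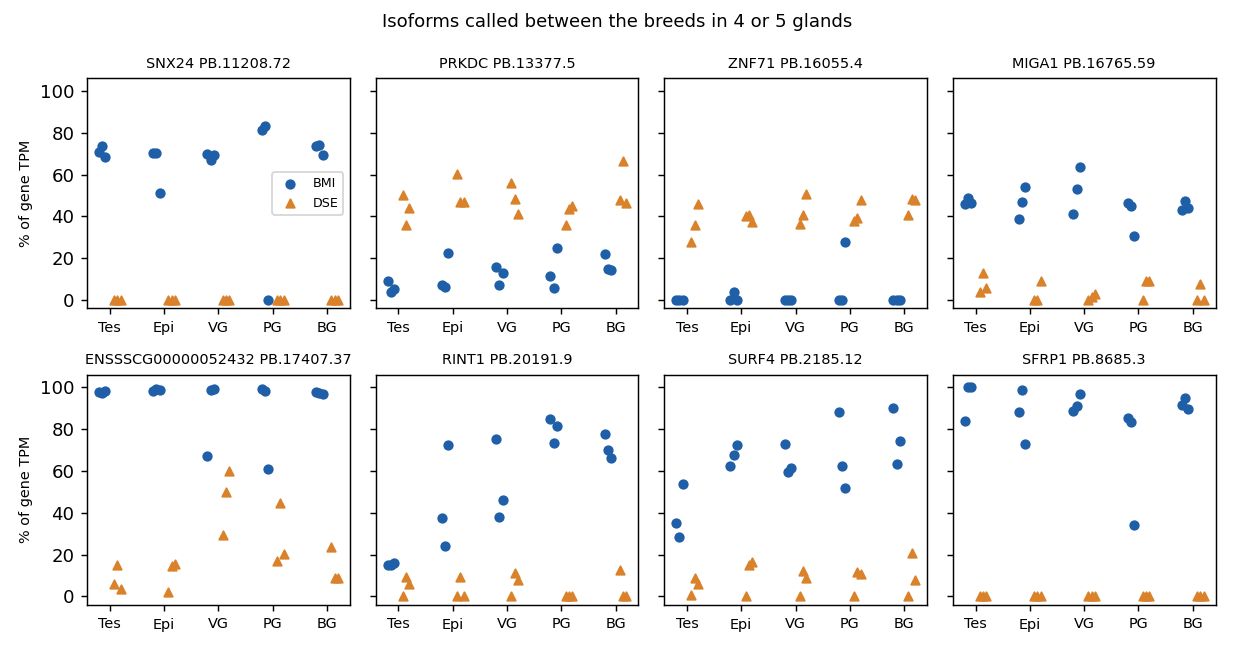
Share of gene TPM in percent (y axis) of the 8 NMD-predicted isoforms called between breeds in 4 or 5 glands (x axis), with 1 point per RNA-seq library. SFRP1 PB.8685.3 is at 0 in every DSE library and has a median of 89.9% in BMI, and 1 BMI prostate library lies apart in several panels.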

How the data were processed

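Members and gene lists were chosen with earlier results of these data known. The authors built isoforms from PacBio reads on Sscrofa11.1 (GSNAP 2018-07-04 and Salmon 1.9.0 in the submitters' processing notes) and classified them with SQANTI3. The deposited files hold full-length read counts, lengths, the percent of A downstream of the 3′ end, and TPM from Salmon, which divides reads between isoforms, so isoform TPM are estimates. TPM keep no sequencing depth, and read totals stated by the study were not used. The labels name rRNA depletion for the short reads, and the study's methods name poly-T beads. Columns were read with pandas 2.3.3, and stops and gaps from the RefSeq genome. limma 3.58.1 (R 4.3.3) was fitted to log2(TPM + 1) and to shares of gene TPM, with 10 groups of 3 libraries and Benjamini-Hochberg adjustment over all transcripts. Fold changes are on the log2(TPM + 1) scale, which understates changes of low transcripts. Tested on simulated data, the fits recovered 91.5% of testis TPM changes of 2 on the log2 scale (64661 transcripts), and 79.5% of testis share changes of 0.2 and 83% of vesicular gland breed changes of 0.4 of gene TPM (39513 transcripts), all larger than a call needs. Named isoforms, 1 per gene in each part and with a symbol, were the 8 highest in TPM, the 5 most read, those called by share without overlap (per gland the 3 largest rises and 2 largest falls), the 2 largest breed differences in share per gland and direction, and those of listed genes. Small RNA data were not used, and values of 1 listed gene are not reported here.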

Additional observations from a re-analysis of the deposited data

Results flagged for a closer look

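The within-gene log2 ratio of NMD-predicted to other NIC/NNC isoforms differed between 9 of the 10 pairs of glands in a two-sided exact permutation test over 6 against 6 libraries. Testis was lower than epididymis (-0.26), vesicular gland (-0.70), prostate (-0.52) and bulbourethral gland (-0.39). Vesicular gland was higher than epididymis (epididymis minus vesicular gland -0.44) and than bulbourethral gland (0.31). These 6 pairs reached p = 0.00216, the smallest the exact permutation test can give (adjusted p = 0.00361). Epididymis minus prostate was -0.26 (exact permutation p = 0.00866, adjusted p = 0.0108), vesicular gland minus prostate was 0.18 (exact permutation p = 0.00649, adjusted p = 0.00928), and prostate minus bulbourethral gland was 0.14 (exact permutation p = 0.0281, adjusted p = 0.0313). Without BMI prostate replicate 2 the last stayed at 0.14 but no longer passed (adjusted exact permutation p = 0.0601). Whether glands came from the same boars is not in the labels, and the cause of the differences was not tested.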

How the results depend on the processing

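Isoform TPM are estimates divided between overlapping isoforms, no long-read result has a replicate, and 3 libraries per group limit the breed tests. Alternatives on BMI prostate replicates 2 and 3, on DSE testis replicate 2 and on canonical junctions were chosen after seeing the data. Of the alternative values for main results, 417 kept their side of the threshold or moved by no more than the limit set for them, 74 counts or values moved further, 24 were weaker, 6 stronger and 21 reversed. The cause of each change was not tested unless the setting itself removed transcripts or libraries.

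The within-gene ratios stayed below 0 in all alternatives. With 1 replicate left out they ranged from -1.95 to -1.93 in testis, -1.76 to -1.62 in epididymis, -1.30 to -1.19 in vesicular gland, -1.45 to -1.38 in prostate and -1.59 to -1.52 in bulbourethral gland, where 4 libraries cannot reach the threshold, as 5 cannot without BMI prostate replicate 2 (-1.42). The testis minus prostate share of -0.942 points no longer passed the threshold, though it was no smaller, with at least 5 long reads (-1.13), a long read in each gland (-2.87), gene TPM of at least 5 (-0.962) and no BMI prostate replicate 2 (-1.0005), ranged from -1.10 to -0.844 with 1 replicate left out, and was reversed with NNC isoforms (0.679), genes chosen by library (0.642) and pooled sums (0.125). Testis minus epididymis (-0.146), vesicular (-1.05) and bulbourethral gland (-0.361) also reversed with NNC isoforms (1.31, 0.371 and 1.12) and genes chosen by library (0.864, 0.917 and 1.07), and the first and last with pooled sums (1.67 and 1.34). Of the pairs without testis, which did not pass the threshold, vesicular gland minus prostate (0.112) reversed with at least 5 long reads (-0.158), NIC isoforms (-0.280), a long read in each gland (-0.504) and genes chosen by library (-0.275), which also reversed epididymis minus vesicular gland (0.0536) and minus bulbourethral gland (0.207). With 1 replicate left out, testis minus epididymis ranged from -0.637 to 0.298, vesicular gland minus prostate from -0.190 to 0.563 and epididymis minus bulbourethral gland from -0.598 to 0.303. Testis minus epididymis, vesicular and bulbourethral gland passed with NIC isoforms (-2.46, -2.76 and -2.59) and with the median over genes (-1.29, -2.02 and -1.48). Pooled sums gave breed differences of -1.16 in testis and 0.0382 in prostate. The median Iso-seq share of 16.1% of reads became 23.7% of isoforms.

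Adding 0.1 in place of 1 to TPM gave 2203 lower in testis, 1114 higher and 984 lower in epididymis, 452 and 2067 in vesicular gland, 563 and 1084 in prostate, and 1005 and 1169 in bulbourethral gland. Size factors gave 308 higher in epididymis, 498 higher and 398 lower in vesicular gland, 276 higher in bulbourethral gland, breed counts of 27 in epididymis (57 before) and 58 in vesicular gland (32), and 3, 9 and 5 list genes in epididymis, vesicular and bulbourethral gland (12, 32 and 8). The direction for vesicular gland thus depended on scaling, and size factors shifted the median of all transcripts there from -0.40 to -0.20. Gene TPM of at least 5, which tests fewer transcripts, gave share calls of 244 and 171 in testis, 27 and 42 in epididymis, 56 and 37 in vesicular gland, 35 and 31 in prostate, 31 and 42 in bulbourethral gland, and 28, 3, 6, 8 and 2 between breeds. Without BMI prostate replicate 2 the breed count by share was 24 in prostate. No background over all transcripts was computed for the counts of these settings.

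With 1 replicate number or BMI prostate replicate 2 left out, breed counts by TPM ranged over 235 to 380 in testis, 46 to 89 in epididymis, 8 to 48 in vesicular gland, 14 to 51 in prostate and 20 to 48 in bulbourethral gland, and by share over 38 to 73, 6 to 9, 13 to 25, 6 to 24 and 5 to 15. Share calls higher and lower ranged over 16 to 49 and 32 to 82 in epididymis, 32 to 100 and 25 to 74 in vesicular gland, 13 to 71 and 22 to 60 in prostate, and 38 to 58 and 37 to 72 in bulbourethral gland. Leaving out replicate 3 of all groups gave the lowest of the vesicular gland and prostate share counts, and leaving out replicate 2 gave the lowest breed counts in testis. Without DSE testis replicate 2 alone, testis counts by gland were 2153 and 793 by TPM (background 29.2% and 10.2%) and 552 and 357 by share (11.2% and 8.4%). For the other settings of this paragraph no background was computed. Prostate TPM calls higher ranged over 140 to 312 and list genes in prostate over 3 to 7.

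Replicate numbers were not taken to pair the libraries across the study, since 18 of 60 same-numbered pairs within a breed correlated above 0.1 (range -0.33 to 0.44). Against this, the library correlated best with its own number, out of 3, in 32 of the 60. In DSE all 3 pairs of epididymis with vesicular gland (0.21 to 0.44) and of testis with vesicular gland (0.10 to 0.30) were above 0.1. SURF4 PB.2185.12, given below, also differed by replicate number in every DSE gland. These are hints of pairing from the data that the labels do not give. A replicate block left testis minus prostate at -0.942 points, no longer past the threshold, and moved no count of calls by over 1.5 times. The Iso-seq shares have no replicate numbers to block on, with 1 library per breed and gland, and were not tested.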

Other observations

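Agreement between long and short reads was uneven for single isoforms. HSPB6 PB.15581.4 had 4 of its 5 long reads in testis, but its share of gene TPM in short reads was highest in vesicular gland. SURF4 PB.2185.12 was at 0 to 0.707% in the DSE replicate 1 library of every gland and at 5.91% to 20.8% in DSE replicates 2 and 3.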
